A study of Mus musculus with 5 samples.

Results

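The genes of the elastic fibre and its microfibrils were followed through 5 pools of mouse lung, 3 at normal and 2 at elevated right ventricular pressure. The list held 10 genes (Eln, Fbn1, Mfap2, Mfap4, Mfap5, Fbln5, Lox, Loxl1, Emilin1 and Ltbp4), chosen for the known place of their proteins in the fibre. A gene entered where the platform annotation maps a probe set to it alone. This gave 9 genes with 14 probe sets, out of 12393 genes on the array, and Fbn1, which encodes fibrillin-1, was not analysed here. The probe set with the highest mean stood for each gene, and the others serve as a check. All 9 genes were above the noise floor in all 5 pools.

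Elastic fibres let the lung and its vessels recoil after stretch. Fibroblasts and smooth muscle cells secrete tropoelastin, which is laid on a scaffold of fibrillin microfibrils, arranged there by fibulins and latent TGF-beta binding proteins, and cross-linked by the copper enzymes of the lysyl oxidase family. In pulmonary hypertension, the walls of small pulmonary arteries thicken and their elastic layers are remodelled. BMPR2 is a receptor for bone morphogenetic proteins (BMPs) whose loss-of-function mutations underlie most heritable pulmonary arterial hypertension.

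Each pool was hybridised to 1 oligonucleotide array, with RNA of several animals pooled per chip, so there are no replicates and values are given without a test. The induced pool was from SM22-tet-BMPR2delx4+ mice on doxycycline, in which the SM22 promoter, active in smooth muscle, drives a mutant BMPR2 through a doxycycline-dependent activator, with a right ventricular pressure of 50 ± 8 mmHg. Its matched control was the same genotype without doxycycline, at 30 ± 3 mmHg. The hypoxic pool was from fvb/n mice aged 8 weeks kept for 4 weeks in hypoxia (50 ± 8 mmHg), and its matched control was wild-type fvb/n mice of the same age at 30 ± 3 mmHg. The fifth pool was from SM22-rtTA mice on doxycycline, which carry the activator but not the mutant receptor, at 30 ± 3 mmHg. For the 3 transgenic pools the titles state 8 weeks, which may be an age or a length of treatment. The kind of error after each pressure, the number of animals in a pool, their sex and the strain of the transgenic mice were not stated. In pooled whole lung, fewer cells of a type and less RNA per cell cannot be told apart.

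Intensities below are scaled: each array was shifted on the log2 scale to a common median over bright probe sets. The noise floor lay at a scaled intensity of 276. A probe's brightness depends on its sequence, so levels were compared between pools and not between genes. A difference of at least 1.5-fold was counted as apart. The 2 transgenic pools at normal pressure give the only measure of spread that is free of raised pressure and of the wild-type array: their log2 ratio had an SD of 0.34 over the 5904 genes above the floor in all pools. These pools also differ in genotype and in doxycycline, and an SD over genes is not a spread between replicates.

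Markers of tissues other than lung parenchyma were high in several pools. The source of that RNA and its part in the levels below were not tested. Summed over 9 skeletal muscle markers, the scaled intensity reached 57698 after induction and 16330 in hypoxia, against 2453 to 5060 in the other 3. That of 8 kidney markers was 45442 in wild type, where all 8 were above the floor, and 1162 to 2814 elsewhere. For 7 squamous epithelial markers the sum was 14904 after induction and 23814 in hypoxia, against 1344 to 1581. Cardiac muscle markers (7) summed to 20644 after induction, against 7599 to 9361, and adipose markers (5) to 8022 after induction and 10674 in wild type, against 1952 to 3288. Of 8 cartilage markers, a further tissue rich in matrix, 0 to 2 were above the floor in any pool, and Acan and Comp were under it in all 5. The lung markers Sftpc, the surfactant protein of alveolar type 2 cells, and Scgb1a1, the secretoglobin of club cells, were far above the floor in each pool.

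Promoter sequences from RefSeq (GRCm38.p6) matched 4 of the 9 genes. These 4 are printed because the other genes had no entry, and profiles played no part in the choice. By the root mean square difference of centred log2 values over the 5 pools, Fbln5 and Ltbp4 were the closest pair of all (0.12). Mfap2 and Emilin1 were the fourth closest (0.19), with Emilin1 and Ltbp4 nearly as close (0.21). Each sequence runs 5′ to 3′ from 250 bases before to 50 bases after the first listed start of the gene, and capitals mark matches on either strand to the SMAD box CAGAC, the GC-rich SMAD motif GGCGCC, and the GC box GGGCGG.
Fbln5, chr12:101819070-101819369, minus strand: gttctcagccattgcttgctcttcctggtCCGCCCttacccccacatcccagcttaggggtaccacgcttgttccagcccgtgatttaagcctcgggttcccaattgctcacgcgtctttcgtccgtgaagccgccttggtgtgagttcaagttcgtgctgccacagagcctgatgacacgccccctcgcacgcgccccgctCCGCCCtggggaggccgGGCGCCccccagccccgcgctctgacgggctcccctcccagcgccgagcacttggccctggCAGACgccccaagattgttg
Ltbp4, chr7:27337563-27337862, minus strand: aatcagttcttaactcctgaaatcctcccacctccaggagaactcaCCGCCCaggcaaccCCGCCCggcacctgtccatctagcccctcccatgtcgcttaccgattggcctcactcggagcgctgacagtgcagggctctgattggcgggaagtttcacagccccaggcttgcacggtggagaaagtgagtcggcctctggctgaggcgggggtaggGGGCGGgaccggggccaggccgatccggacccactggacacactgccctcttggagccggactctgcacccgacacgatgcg
Mfap2, chr4:141010431-141010730, plus strand: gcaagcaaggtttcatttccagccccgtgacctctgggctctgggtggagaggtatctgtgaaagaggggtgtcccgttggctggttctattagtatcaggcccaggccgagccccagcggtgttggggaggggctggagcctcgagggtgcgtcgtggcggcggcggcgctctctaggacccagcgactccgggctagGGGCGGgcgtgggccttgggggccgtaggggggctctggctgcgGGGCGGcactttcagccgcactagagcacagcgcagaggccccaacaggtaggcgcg
Emilin1, chr5:30913536-30913835, plus strand: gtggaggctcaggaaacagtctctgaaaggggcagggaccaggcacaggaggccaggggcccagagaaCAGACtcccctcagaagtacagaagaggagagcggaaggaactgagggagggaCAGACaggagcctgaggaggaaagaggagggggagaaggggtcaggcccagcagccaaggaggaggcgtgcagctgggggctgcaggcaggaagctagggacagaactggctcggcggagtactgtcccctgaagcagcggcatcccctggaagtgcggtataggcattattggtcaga

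The GC box was present in 3 of the 4 printed promoters (2 matches in Fbln5, 3 in Ltbp4, 2 in Mfap2) and in 35.7% of the 32851 promoters of the table. The 4 printed windows were 61.7% to 68% G or C, beside a median of 52.7% over all promoters, and the shares are not adjusted for this. CAGAC matched once in Fbln5 and at 2 places in Emilin1, and 49.6% of all promoters hold it. GGCGCC matched once, in Fbln5, and 11.9% of all promoters hold it. The TATA box TATAAA, held by 13.6%, had no match in these 4 windows. Further listed starts hold other motifs: that of Mfap2 has CAGAC once and no GC box, and that of Fbln5 has CAGAC at 2 places and GGCGCC once. Both of Ltbp4 have GGCGCC once and 7 or 9 GC boxes, but their windows overlap and share most of these sites. A match is a string of letters and does not show binding.

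Induction of mutant BMPR2 was compared with the same genotype off doxycycline. Mfap4, a microfibril-associated glycoprotein that binds tropoelastin, stood apart from the rest: it was at 1368 in the induced pool and at 3969 in its control, 2.90-fold lower. Lox, the cross-linking enzyme lysyl oxidase, was at 1754 against 3518, 2.01-fold lower. The other 7 genes differed by less than 1.5-fold, and all but Mfap5 were below the control. In all, 2 of 9 genes were at least 1.5-fold lower, where 2.57% of the 8590 genes measured on the array were, and 0 were that much higher, where 5.04% were. The median log2 ratio of the 9 was -0.45, with 8 of 9 below 0, beside a median of 0 and 41.5% below 0 over all measured genes.

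**Figure D1:**
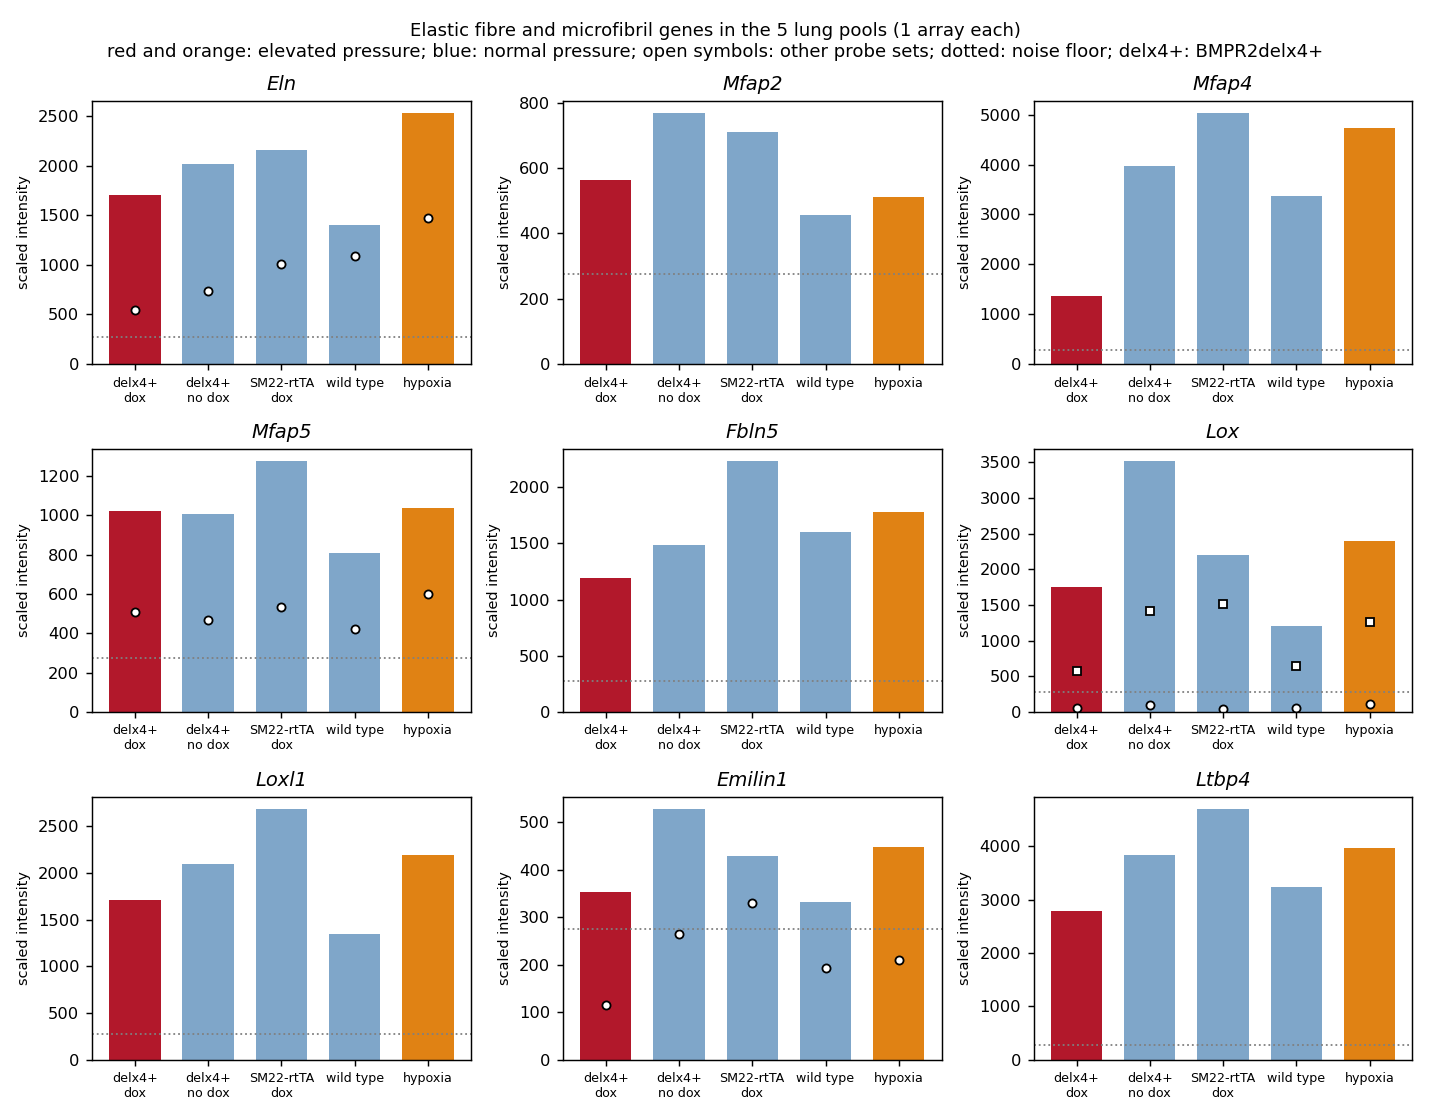
Scaled intensity (vertical axes, linear, from 0) of the 9 genes in each pool (horizontal axes); a bar is the representative probe set on 1 array, open symbols are other probe sets of the gene and the dotted line is the noise floor. Mfap4 is at 1368 in the induced pool and between 3377 and 5028 in the others, while 6 of the 9 genes are lowest in wild type.

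Mfap4 was at 1368 in the induced pool, 3969 in uninduced BMPR2delx4+, 5028 in SM22-rtTA, 3377 in wild type and 4735 in hypoxia. The 4 other pools lay between 3377 and 5028, and the induced pool was 2.47-fold under the lowest of them. Only 7 of the 8590 measured genes had a lower ratio against the uninduced control, and 8 against SM22-rtTA, where Mfap4 was 3.68-fold lower. The array holds a single probe set for Mfap4, so no second one could be compared.

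The lysyl oxidases form the cross-links that make elastin insoluble. Lox was at 1754 in the induced pool, 3518 in uninduced BMPR2delx4+, 2206 in SM22-rtTA, 1211 in wild type and 2399 in hypoxia. The uninduced pool was the high one, 1.47-fold above the next, and against SM22-rtTA the induced pool was 1.26-fold lower. A second Lox probe set gave 570, 1422, 1509, 648 and 1257 in the same order of pools, so with that probe set induced Lox was below both transgenic controls, by log2 ratios of -1.32 and -1.40. The third Lox probe set was under the floor in all pools. Loxl1, which acts on elastin together with fibulin-5, was at 1712, 2103, 2686, 1347 and 2199, and the induced pool was 1.23-fold below the uninduced and 1.57-fold below the SM22-rtTA pool.

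Elastin itself (Eln) was at 1700 in the induced pool, 2018 in uninduced BMPR2delx4+, 2156 in SM22-rtTA, 1402 in wild type and 2526 in hypoxia. Its induced level was 1.19-fold below the uninduced and 1.27-fold below the SM22-rtTA pool. The second Eln probe set gave 542, 735, 1003, 1084 and 1472, with larger differences, log2 ratios of -0.44 and -0.89. Both probe sets were highest in hypoxia, but they placed wild type differently: it was the lowest pool with the first, and with the other it was above all 3 transgenic pools.

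Fibulin-5 (Fbln5) tethers tropoelastin to microfibrils and to integrins, and Ltbp4, a latent TGF-beta binding protein, guides the deposition of fibulin-5 and elastin. Fbln5 was at 1190 in the induced pool, 1481 in uninduced BMPR2delx4+, 2231 in SM22-rtTA, 1599 in wild type and 1778 in hypoxia. Ltbp4 was at 2783, 3844, 4702, 3247 and 3963 in the same order. Both were lowest in the induced and highest in the SM22-rtTA pool, as was Mfap4. Against SM22-rtTA, Fbln5 was 1.87-fold and Ltbp4 1.69-fold lower, while the 2 normal-pressure transgenic pools themselves differed 1.51-fold in Fbln5 and 1.22-fold in Ltbp4.

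Emilin1, a glycoprotein at the interface of elastin and microfibrils that also restrains TGF-beta maturation, was at 353, 528, 430, 333 and 449 in the same order. Its log2 ratio of -0.58 to the uninduced pool fell just short of the 1.5-fold threshold. Its second probe set was above the floor in SM22-rtTA alone. Mfap2 and Mfap5 encode the small microfibril-associated glycoproteins MAGP-1 and MAGP-2, which bind fibrillin. Mfap2 was at 562, 768, 709, 456 and 510, and Mfap5 at 1020, 1005, 1275, 807 and 1039. Mfap5 differed from its uninduced control by 1.01-fold, the smallest difference of the 9, and its second probe set (508, 469, 534, 422 and 599) also gave a small difference, a log2 ratio of 0.12.

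With the doxycycline-treated SM22-rtTA pool as the control, 9 of 9 genes were below it (36.7% of all measured genes were), with a median log2 ratio of -0.34 beside 0.012 over all measured genes. Of these, 4 were at least 1.5-fold lower (Mfap4, Fbln5, Ltbp4 and Loxl1), where 6.11% of all measured genes were, and 0 were that much higher, where 9.72% were. The comparison shares the induced array with the one above. Between the 2 normal-pressure transgenic pools, 6 of 9 genes were higher in SM22-rtTA (35.9% of all measured genes were). Fbln5 was at least 1.5-fold higher in SM22-rtTA (3% of all measured genes were) and Lox was at least 1.5-fold lower there (4.51%), 1.59-fold with the first probe set and with a log2 ratio of 0.086 with the second. Mfap4 was the one gene of the 9 with a difference of over 1.5-fold against both transgenic controls by the representative probe set.

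**Figure D2:**
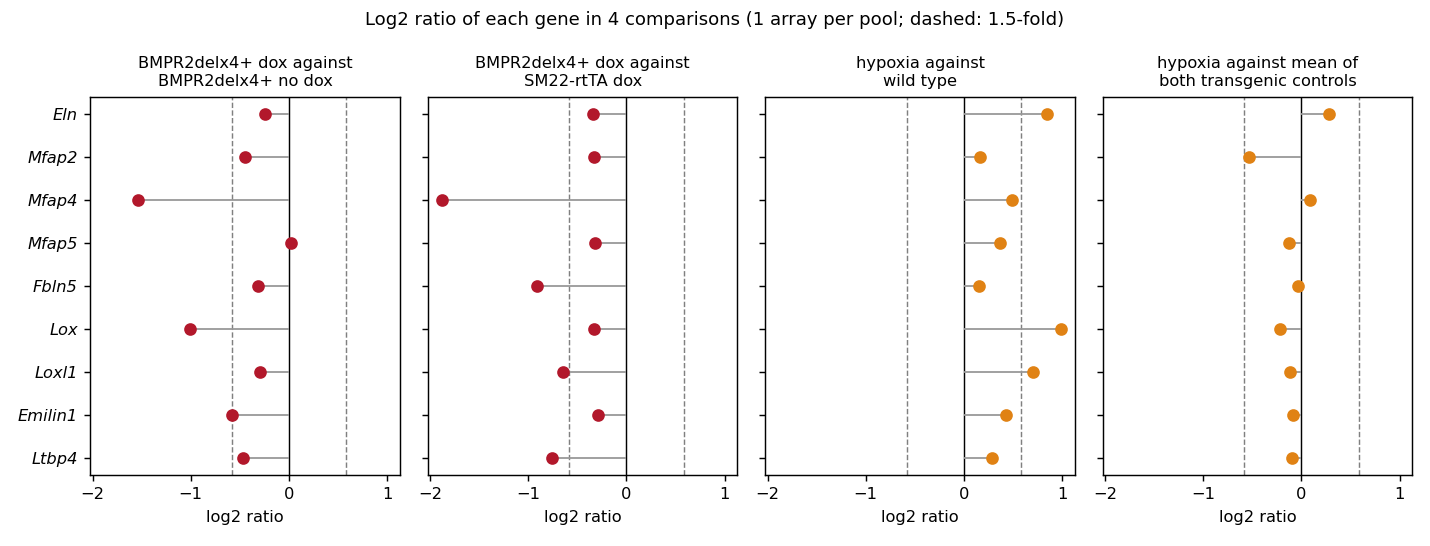
Log2 ratio (horizontal axes) of each of the 9 genes (rows) in 4 comparisons, 1 array per pool except the mean of 2 arrays in the last panel; dashed lines mark 1.5-fold. Mfap4 is at -1.54 and -1.88 in the 2 panels of the induced pool, and the 9 genes that lie above 0 against wild type scatter about 0 in the last panel.

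Hypoxia was compared with wild type to see the same genes under raised pressure without a transgene. All 9 genes were higher in the hypoxic pool, beside 53.3% of all measured genes, with a median log2 ratio of 0.43 beside 0.034. Lox was at 2399 against 1211, 1.98-fold higher, Eln at 2526 against 1402, 1.80-fold, and Loxl1 at 2199 against 1347, 1.63-fold. These 3 of 9 were at least 1.5-fold higher, where 7.6% of all measured genes were, and 0 were that much lower, where 11.9% were. Mfap4 (4735 against 3377) was 1.40-fold higher, and Fbln5 (1778 against 1599) and Mfap2 (510 against 456) 1.11-fold and 1.12-fold.

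Against the transgenic controls, most of these differences were small or turned, and Eln stayed higher. In wild type all 9 genes were below the mean of the 2 transgenic normal-pressure pools (47% of all measured genes were), by a median log2 ratio of -0.52, and Lox, Loxl1 and Mfap2 were at least 1.5-fold below it, beside 10.2% of all measured genes, while 0 were that much above it, beside 16.9%. Wild type was the lowest pool for 6 of the 9 genes, and for 31% of the 5904 genes above the floor in all pools. The induced pool was lowest for the other 3 (16.1% of those genes). The highest pool was SM22-rtTA for 5 genes (17.2%), uninduced BMPR2delx4+ for Mfap2, Lox and Emilin1 (19%) and hypoxia for Eln (20.6%). Set against the mean of those 2 transgenic pools instead, the hypoxic pool had 0 of 9 genes at least 1.5-fold higher (12.2% of all measured genes) and 0 at least 1.5-fold lower (4.28%), with a median log2 ratio of -0.10 and 7 of 9 below 0 (47.8%). Mfap2 was furthest, 1.45-fold lower, and Eln 1.21-fold higher. By the representative probe sets, only Eln exceeded all 3 normal-pressure pools, by 1.17-fold over the highest of them. Its second probe set gave a log2 ratio of 0.78 against the transgenic mean. The second Mfap5 probe set was also highest in hypoxia, at 599 against 422 to 534 in the normal-pressure pools.

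The next yardstick was the range of all 3 normal-pressure pools, together with 1.5-fold from the matched control as before. By the representative probe sets, this left Mfap4 below the range in the induced pool and Eln above it in the hypoxic pool. The second Eln probe set was also above the range in hypoxia, but only 1.36-fold above wild type, so it did not meet the rule. By that rule 1.32% of all measured genes were lower and 3.26% higher after induction, and 4.19% were higher and 4.82% lower in hypoxia. Without wild type in the range, Lox was also below it after induction by its representative probe set. The second Lox probe set, at 570, was below all 3 normal-pressure pools (648 to 1509), with a log2 ratio of -1.32 to the uninduced pool. By that probe set Lox met the rule with wild type included. The 2 elevated-pressure pools, set directly against each other, differed at least 1.5-fold in Mfap4, which was 3.46-fold lower in the induced pool (11.4% of all measured genes were at least 1.5-fold lower), while 0 of 9 were that much higher (10.7%). In all, 8 of 9 were lower (46.5%). Eln and Fbln5 followed, both 1.49-fold lower, and Mfap5 was 1.02-fold lower. The second probe sets of Eln and Lox gave larger differences, with the induced level 0.368 and 0.454 times the hypoxic one, so by those probe sets both were also at least 1.5-fold lower.

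**Figure D3:**
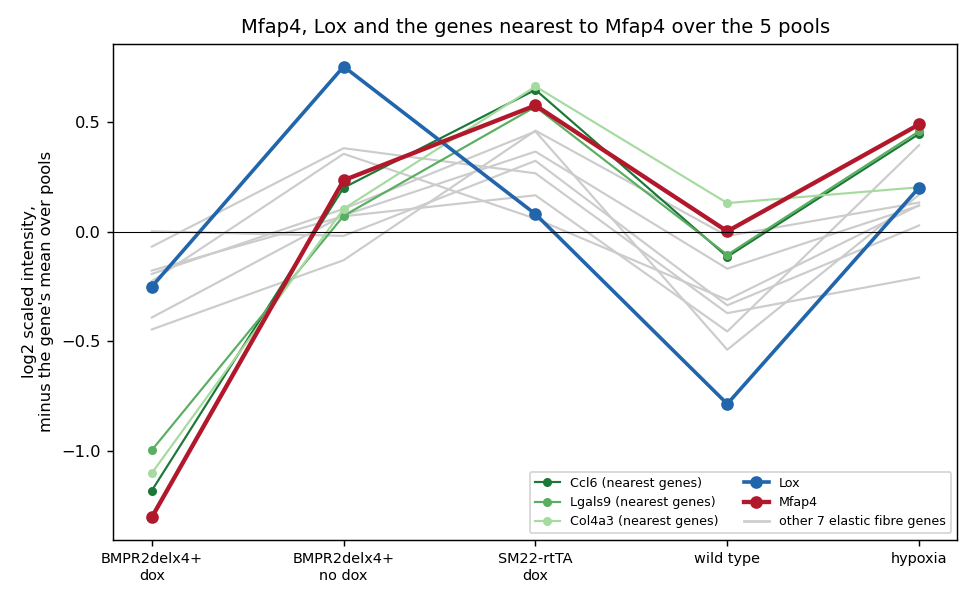
Log2 scaled intensity minus each gene's mean over the pools (vertical axis) in the 5 pools (horizontal axis; the lines only connect the points of a gene), for Mfap4, Lox, the other 7 elastic fibre genes in grey, and the 3 genes nearest to Mfap4. Ccl6, Lgals9 and Col4a3 dip in the induced pool with Mfap4, and Lox peaks in the uninduced pool.

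The profile of Mfap4 was set beside those of other genes. Very few of the genes compared belong to the fibre, so nearest genes from outside it say little about likeness to the fibre genes. Among the 5903 other genes above the floor in all pools, the nearest by root mean square difference were the chemokine Ccl6 (0.085), the galectin Lgals9 (0.16) and Col4a3 (0.18), a collagen of basement membranes. Ccl6 was at 473 in the induced pool, 1233 in uninduced BMPR2delx4+, 1680 in SM22-rtTA, 991 in wild type and 1462 in hypoxia. Of the elastic fibre genes, Fbln5 ranked 99th and Ltbp4 115th, and Lox 1950th. The integrin chain Itga8 and the transmembrane collagen Col13a1, both on the list of alveolar fibroblast markers, ranked 5th and 8th. The other 5 markers of that list ranked 110th (Npnt), 121st (Tcf21), 670th (Pdgfra), 845th (Inmt) and 1782nd (Limch1).

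The marker lists of lung cell types were read beside the 9 genes. All 7 alveolar fibroblast markers were below the control in the induced pool (41.5% of all measured genes were), with a median log2 ratio of -0.51. Of these, 3 were at least 1.5-fold lower, where 2.57% of all measured genes were. Itga8 was 0.398 times and Col13a1 0.402 times its uninduced level. Of 4 measured neutrophil markers, S100a8 and S100a9 were 3.28-fold and 3.75-fold lower and the other two were above the control by less than 1.5-fold. Endothelial markers (9, median -0.63), alveolar type 1 markers (5, median -0.35) and alveolar type 2 markers (6, median -0.39) also had medians below 0. Of the endothelial markers, 5 were at least 1.5-fold lower, beside the same 2.57%. The 9 markers of adventitial fibroblasts, which include the fibrillar collagens, had a median of 0.29, with Lum at 874 against a control under the floor. The 8 smooth muscle markers had a median of 0.17, and 8 of 8 were above the control, as were 3860 of the 8590 measured genes. Against SM22-rtTA their median was 0.83, with 6 at least 1.5-fold higher (9.72% of all measured genes) and 0 lower (6.11%). In SM22-rtTA against uninduced it was -0.57, with 4 at least 1.5-fold lower (4.51%) and 0 higher (3%). Medians of the induced pool against SM22-rtTA were -0.60 for alveolar fibroblast, -0.59 for endothelial and 0.13 for adventitial markers. In hypoxia against wild type the alveolar fibroblast median was 0.53, the endothelial 0.41, the smooth muscle 0.43 and the adventitial -0.081. Summed alveolar fibroblast markers ran from 23151 in the induced pool to 32279 in hypoxia, and summed smooth muscle markers from 8242 in wild type to 18643 in the induced pool. The part of these cell types in the levels of the elastic fibre genes was not tested.

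**Figure D4:**
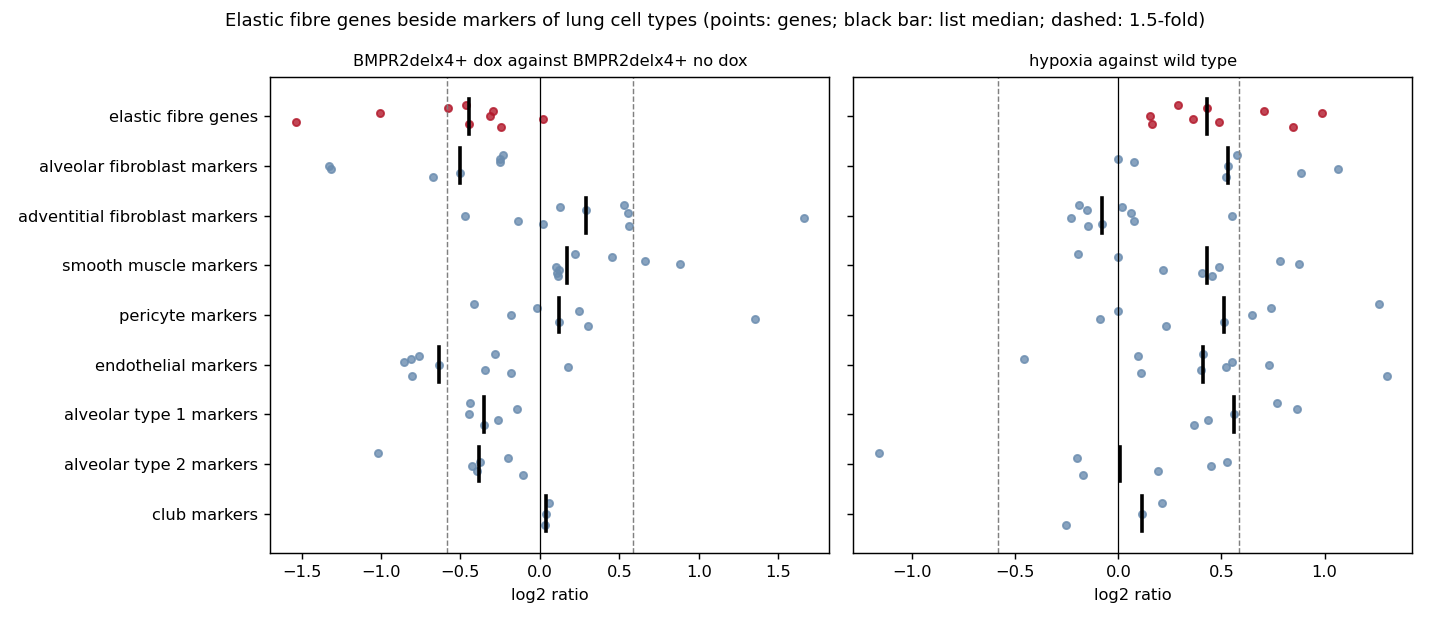
Log2 ratio (horizontal axes) of the 9 elastic fibre genes and of lung cell type markers (rows, a point per gene, a black bar at the median), for induction and for hypoxia against their matched controls; dashed lines mark 1.5-fold. In the left panel the medians of the elastic fibre (-0.45), alveolar fibroblast (-0.51) and endothelial (-0.63) rows lie below 0 and those of adventitial fibroblast (0.29) and smooth muscle (0.17) rows above it.

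The scaling of the arrays sets where 0 lies, so genes with small ratios can change sign with it, while the direction of Mfap4 and Lox in the induced against the uninduced pool was the same under the 5 scalings run. When each array was shifted to a common median of alveolar and endothelial markers, the median over all measured genes moved to 0.33 for induction and -0.20 for hypoxia. Of the 9 genes, 5 were then below the uninduced control and 4 above it, with Eln, Fbln5 and Loxl1 turned. The median of the 9 became -0.048, and relative to the median of all measured genes it was -0.38, beside -0.45 under the scaling used above. Mfap4 had a log2 ratio of -1.14 and Lox of -0.60, and the others lay between -0.18 (Emilin1) and 0.42 (Mfap5). Against SM22-rtTA, 5 of 9 were above and 4 below under this scaling, with Mfap4 at -1.49 and Fbln5 at -0.52. In hypoxia against wild type, 6 of 9 were then higher and 3 (Mfap2, Fbln5 and Ltbp4) lower, with Lox at 0.66 and Eln at 0.52, and the median of the 9 relative to that of all measured genes was 0.31, beside 0.40 before. Values as deposited and quantile normalization left 9 of 9 genes below the uninduced control and 9 of 9 above wild type.

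**Figure D5:**
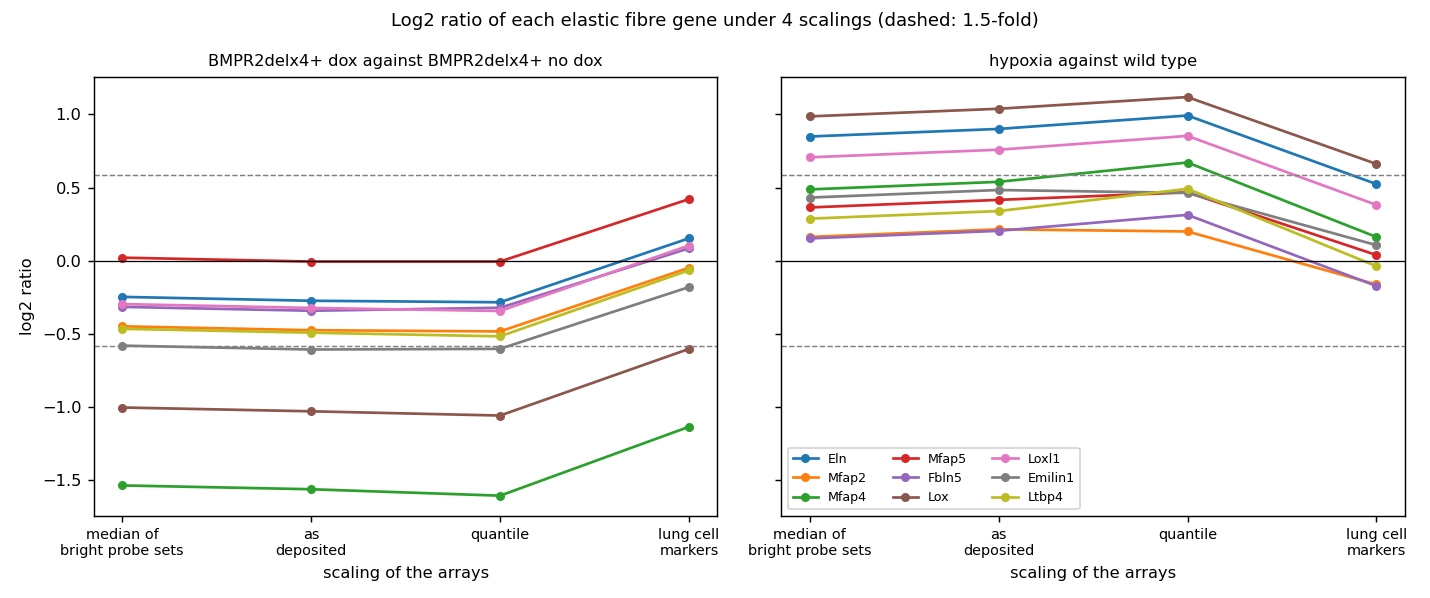
Log2 ratio (vertical axis) of each of the 9 genes under 4 scalings of the arrays (horizontal axes) for induction and for hypoxia against their matched controls; lines connect the values of a gene and dashed lines mark 1.5-fold. Mfap4 (-1.14) and Lox (-0.60) keep log2 ratios beyond 1.5-fold in the left panel with lung cell markers as the base.

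Other genes of elastic fibre biology were taken from lists by function, and their counts are read against the shares of all measured genes given above for each comparison. Of 10 measured matrix partners, 0 were at least 1.5-fold from the uninduced control after induction (2.57% of all measured genes were lower and 5.04% higher), and 2 were at least 1.5-fold higher in hypoxia than in wild type (7.6%), fibronectin (Fn1, 3331 against 2120) and fibulin-1 (Fbln1, 1075 against 669). The other controls gave other genes. Against SM22-rtTA, Fbln1 was 1.88-fold lower in the induced pool. Against the transgenic mean, hypoxic Fn1 and Fbln1 had log2 ratios of 0.35 and -0.083, and the 1 gene apart was the perlecan gene Hspg2, 1.51-fold higher. The medians of the list were -0.055 for induction, 0.29 for hypoxia against wild type and -0.011 against the transgenic mean.

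Of 10 measured genes of latent TGF-beta storage and activation, 0 were apart from the uninduced control after induction. Against SM22-rtTA the growth factor gene Tgfb1 was 2.10-fold lower and the integrin chain Itgav, which takes part in TGF-beta activation, 1.76-fold higher. In hypoxia 2 were higher than in wild type, Thbs1 (1165 against 615), whose product thrombospondin-1 activates TGF-beta, and Tgfb3 (454 against 299). Against the transgenic mean their log2 ratios were 0.15 and -0.27, and Ltbp2 was 1.52-fold higher. Ltbp1, Ltbp2 and Ltbp3, the relatives of Ltbp4, had log2 ratios of -0.20, -0.19 and 0.28 to the uninduced control.

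Among 6 measured genes of cross-linking and copper supply, the transglutaminase Tgm2 was the 1 apart after induction, at 2832 against 4358, 1.54-fold lower. It was 1.49-fold below SM22-rtTA, where 0 of the 6 were apart. The copper importer Slc31a1 was the 1 apart in hypoxia, at 518 against 856 in wild type, with a log2 ratio of -0.37 to the transgenic mean. In that comparison Loxl3 was at least 1.75-fold higher, its transgenic controls being under the floor. Loxl4 and Tll1 were under the floor in all pools.

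Of 8 measured elastin-degrading proteases, the gelatinase Mmp9 was under the floor in the induced pool and at 459 in its control, at least 1.66-fold lower, and 0 were at least 1.5-fold higher. Against SM22-rtTA the 2 apart were cathepsin S (Ctss, 1109 against 2679) and the membrane protease Mmp14 (388 against 756), both lower. In hypoxia Mmp14 changed direction with the control: at 417 it was at least 1.51-fold above a wild-type level under the floor and 1.48-fold below the transgenic mean. Cathepsin L (Ctsl, 2785 against 4511) was 1.62-fold below wild type, with a log2 ratio of 0.019 to the transgenic mean, and Mmp7 was above that mean by a log2 ratio of at least 1.01. The macrophage elastase Mmp12 and the neutrophil proteases Prtn3 and Ctsg were under the floor in every pool, and neutrophil elastase (Elane) was above it in wild type alone (352).

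Of 6 measured protease inhibitors, 0 were apart from the uninduced control after induction, and the cathepsin inhibitor Cst3 was 1.66-fold below SM22-rtTA. In hypoxia Slpi, an inhibitor of neutrophil elastase, was at 4364 against 1365 in wild type, 3.20-fold higher, and 2.37-fold above the transgenic mean. The metalloprotease inhibitor Timp3 was at 4216 against 6525 in wild type, with a log2 ratio of -0.14 to the transgenic mean.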

How the data were processed

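Whole-lung RNA of 5 pools was measured on 1 array each, and groups, pressures and times were taken from the labels. The deposited values are linear intensities per probe set (22626), none under 50, with 9.85% to 12.5% of each array at that limit. How the authors summarised and scaled these intensities was not stated. From them, log2 values were taken and each array was shifted to the common median of the 9046 probe sets above every array's own median, the shifts running from -0.11 to 0.13. Lower values were raised to a floor at the 50th percentile (276). The platform annotation gave 1 gene for 20380 probe sets, several for 691 and none for 1555, and current symbols came from the gene ID for 20351. A gene counts as measured if it exceeded the floor on any array (8590 of 12393 genes). A gene under the floor gives a bound.

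With 1 array per condition no test was possible, and the number of arrays limits the precision. Genes and lists were chosen with earlier results of these data known. Named beyond the 9 genes are up to 4 members of each functional list at least 1.5-fold apart in a matched comparison and the 3 genes nearest to the one with the widest range. Members apart from the other controls, members under the floor and relatives of a gene were named after their values were seen. The log2 ratio and the 1.5-fold threshold of induced against uninduced were tested on simulated data, in genes well above the floor. The rule with the range of the normal-pressure pools was not. Python 3.11.15, numpy 2.4.6 and pandas 2.3.3 were used.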

Additional observations from a re-analysis of the deposited data

Results flagged for a closer look

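In 8 of the 9 genes, the induced pool was below its matched control and the hypoxic pool above its own, as in 23.9% of all measured genes. With scaling on lung cell markers, 3 of the 9 (Mfap4, Lox and Emilin1) and 2.79% of all measured genes had this pattern. The difference between the 2 log2 ratios was -2.02 for Mfap4, -1.99 for Lox, -1.10 for Eln, -1.01 for Emilin1, -1.004 for Loxl1, -0.75 for Ltbp4, -0.61 for Mfap2 and -0.47 for Fbln5. These differences were not tested, since each pool is 1 array. The hypoxic ratio in each rests on the wild-type array, the one with kidney markers at 45442 in sum. Against the transgenic controls, hypoxia gave log2 ratios of 0.084 for Mfap4 and -0.22 for Lox.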

How the results depend on the processing

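The cause of each shift below was not tested. With scaling on lung cell markers, the median of the 9 genes was -0.048 for induction, 0.041 against SM22-rtTA, 0.11 for hypoxia against wild type, -0.11 for wild type against the transgenic controls and -0.15 for induced against hypoxia, and the genes at least 1.5-fold apart numbered 1 against SM22-rtTA, 1 for hypoxia and 1 for wild type (1.7%, 2.19% and 2.47% of all measured genes). As deposited, the medians were -0.27 for hypoxia against the transgenic controls (1 gene lower, 10.2% of all measured genes), -0.74 for wild type (8 genes lower, 19.8%) and -0.33 for induced against hypoxia, with the median of all measured genes at -0.12, -0.14 and 0.071. With quantile normalization wild type gave -0.63 and 7 genes lower (14.5%), and induced against hypoxia 3 genes lower (11.5%). A floor at the 70th percentile gave -0.32 for induction and -0.41 for wild type. A pseudocount in place of the floor gave -0.32 for induction, 0.28 for hypoxia and -0.38 for wild type. It left 0 genes higher in SM22-rtTA than uninduced (1.32% of all measured genes). Averaging probe sets gave -0.62 against SM22-rtTA, -0.40 for wild type, 0 genes lower in SM22-rtTA than uninduced (3.31%) and 3 lower in induced than hypoxic lung (9.4%). The second probe set gave -0.76, -0.39, 0 (4.13%) and 3 (12%), and 1 gene higher in hypoxia than in the transgenic controls (10.5%). At 2-fold, 2 genes were lower after induction (0.466% of all measured genes) and 1 was lower against SM22-rtTA (1.44%). In hypoxia 0 were higher (1.43%), and 1 was lower for wild type (2.06%). For SM22-rtTA against uninduced, 0 were higher (0.489%) and 0 lower (0.745%). Without wild type in the normal range, 2 genes were called lower after induction by the representative probe sets. The share of all measured genes was not taken for that range. Signs turned for Lox in SM22-rtTA against uninduced (0.086 with its second probe set), and for 7 of 9 genes in hypoxia with the transgenic pools as control, among them Lox (-0.22) and Loxl1 (-0.11), which had been over 1.5-fold higher, and Mfap2 (-0.53), Mfap5 (-0.12), Fbln5 (-0.033), Emilin1 (-0.087) and Ltbp4 (-0.10). A scaling on probe sets chosen without wild type, added after the data were seen, moved none of these medians by over 0.1. It put 3 genes, in place of 2, at least 1.5-fold lower after induction (2.62% of all measured genes, in place of 2.57%). No paired analysis was possible because each condition has 1 array. Genes near the floor of 276, such as Emilin1, have the least signal over background.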

Other observations

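The 3 genes of the elastin receptor complex, which binds elastin fragments at the cell surface and whose parts also work in lysosomes, followed the wild-type pool. The sialidase Neu1 was at 2031 in wild type and between 203 and 299 in the other 4 pools. The galactosidase Glb1 was at 1330 against 402 to 489, and the protective protein Ctsa at 2347 against 780 to 1394. All 3 were at least 1.5-fold lower in hypoxia than in wild type (11.9% of all measured genes were). In hypoxia 0 of 3 were apart from the transgenic controls, where 12.2% of all measured genes were higher and 4.28% lower. Ctsa was also 1.79-fold lower in the induced than in the SM22-rtTA pool. Kidney markers were high in the same pool, and their part in these levels was not tested.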
